A study of Mus musculus with 12 samples.

Results

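The further loss of Bach1 in alveolar macrophages that already lack Bach2 was read from 3 arrays of mice lacking both factors (DKO, Bach1/Bach2 double knockout, titled DD) and 3 arrays of mice lacking Bach2 alone (Bach2 KO, titled B2KO). These 6 arrays were chosen by genotype, of 12 in the series, which also holds 3 arrays of Bach1 KO and 3 of WT mice. All mice were female C57BL/6, 8 to 9 weeks old, with 3 independent mice per genotype. Macrophages were taken by bronchoalveolar lavage, sorted by flow cytometry, and their total RNA was hybridised in the Cy3 channel to Agilent mouse arrays, so both groups share the absence of Bach2 and differ in Bach1. The labels describe both losses only as knockouts and do not give the alleles, the exons removed or the sort markers.

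Bach1 and Bach2 are related transcription factors that pair with small Maf proteins and mostly repress genes through antioxidant response elements. Bach1 leaves these sites when it binds heme, and its best known targets are the heme-degrading enzyme gene Hmox1, ferritin and glutathione synthesis genes. Alveolar macrophages live in the airspace, clear surfactant lipid and dead cells, renew themselves by local division, and depend on GM-CSF and PPARgamma for their identity.

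Levels are given on a log2 scale after subtracting the 75th percentile of each array, so 0 is that percentile, and a difference of 1 is a doubling. Between 48.2% and 72.4% of spots were well above background on the Bach2 KO arrays and between 52.3% and 57.4% on the DKO arrays, and no spot was saturated. Log2 signals correlated across probes at 0.967 to 0.985 within Bach2 KO, 0.975 to 0.987 within DKO and 0.933 to 0.97 between the groups. All 3 DKO arrays lay on slide 3, scanned on another day per the file headers, whereas Bach2 KO arrays 1 and 2 lay on slide 1 and array 3 on slide 2. The loss of Bach1 and the DKO slide and scan therefore cannot be told apart, and no comparison of these 2 groups within a slide exists. The WT and Bach1 KO arrays all lay on slide 1, so the DKO slide and scan also enter any contrast between the 2 backgrounds. The arrays measure bulk RNA, in which fewer cells of a type and less RNA per cell cannot be told apart.

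The Bach1 probe itself read 3.81, 4.12 and 3.88 on the Bach2 KO arrays and 2.59, 3.13 and 1.72 on the DKO arrays. The DKO values all lay below the Bach2 KO values. The difference of -1.45 ± 0.32 (SE, 2.73-fold) had an adjusted p of 0.0562 over all 55650 probes and did not pass at 0.05, and it had an adjusted p of 0.0309 over the 24348 genes and transcripts tested below. Of the alternative fits over all probes, 7 passed and 9 did not. With the replicate number as a block, a pairing taken from these data, it passed (adjusted p = 0.0464). Without DKO array 2, which held the highest DKO value, it also passed (-1.78, adjusted p = 0.0264). It did not pass when any other DKO or Bach2 KO array was left out. Bach1 KO differed from WT by -1.43 on the same probe. The labels do not say whether this probe lies in the removed part of the gene. For Bach2, none of the 12 arrays gave a signal well above background at 1 of its 2 probes. The other read -5.29, -3.72 and -5.29 in Bach2 KO and -5.46, -3.19 and -4.95 in DKO. This overlap is not informative about the label, since both groups are labelled as lacking Bach2. The same probe read -2.42, -2.18 and -8.13 in WT, and it was well above background on 2 Bach2 KO and 3 DKO arrays. Neither Bach2 KO (-0.52, adjusted p = 0.899 in limma) nor DKO (-0.29, adjusted p = 0.913) passed against WT. The absence of Bach2 therefore rests on the labels and not on these probes.

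Loss of Bach1 on the Bach2-null background was accompanied by lower levels of a set of alveolar macrophage genes (Krt19, Plet1, Lpl, Marco), of mitotic genes (Ccna2, Ccnb2, Kif11) and of the efferocytosis receptor gene Axl, and by higher levels of Hmox1, Gclm, Slc40a1 and Spic. Of 24348 genes and transcripts tested, 382 were higher in DKO (1.57% of those tested) and 510 were lower (2.09%), at a Benjamini-Hochberg adjusted p under 0.05 in limma. Those with a gene symbol numbered 207 higher and 366 lower. The median difference over everything tested was 0.04. At least a 4-fold difference was seen for 165 of the higher and 297 of the lower genes. The 3 arrays of each group did not overlap for any of the 892 genes that passed (3.66% of those tested), but this held for 19.4% of all tested in the higher and 16.7% in the lower direction. Of the lower genes, 78 were not well above background on any DKO array, and 14 of the higher genes were not on any Bach2 KO array. Both counts moved with single arrays: without Bach2 KO array 1, 2 or 3 they were 79 and 231, 283 and 361, and 94 and 287, and without DKO array 1, 2 or 3 they were 64 and 255, 216 and 357, and 117 and 304. In all 6 of these fits 44 of the higher genes (11.5%) and 210 of the lower genes (41.2%) kept their call. Without scaling between arrays the counts were 149 and 474, so that 23.9% of calls were higher instead of 42.8%, and with the 2 groups fitted alone they were 1098 and 953.

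**Figure D1:**
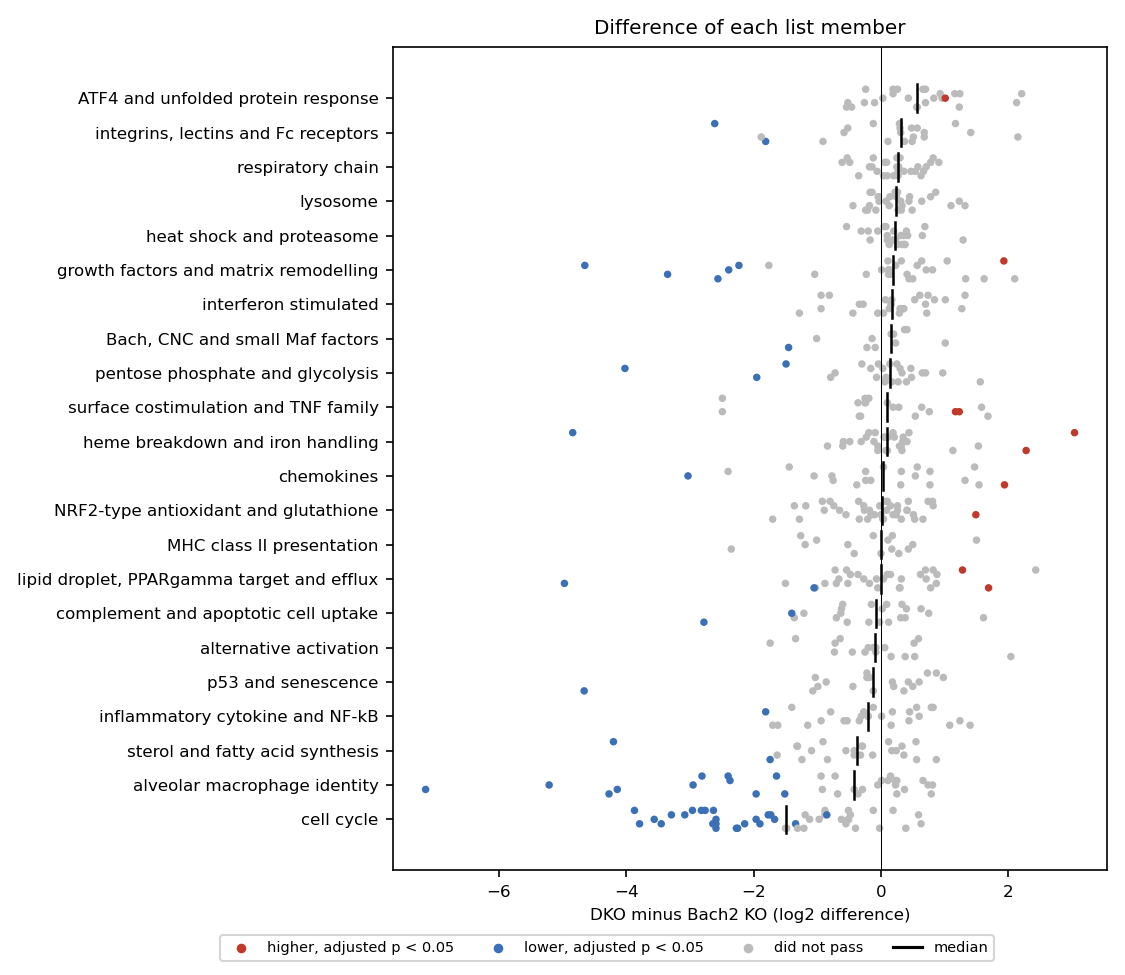
The x axis gives the log2 difference DKO minus Bach2 KO for each measured member of 22 gene lists, red where higher and blue where lower at adjusted p under 0.05, grey where the test was not passed; black bars are list medians and the vertical scatter only separates points. Cell cycle members lie to the left with a median of -1.49, and 11 alveolar macrophage identity members are blue.

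Among 31 genes of the alveolar macrophage identity list, all of which were tested, 11 fell and none rose, and the list's median difference was -0.42 against 0.04 over all genes. Of everything tested, 2.09% fell and 1.57% rose. The 11 were Krt19, Plet1, Cidec, Fabp1, Krt79, Marco, Ear1, Lpl, Siglecf, Serpinb1a and Ear2. Plet1, a surface protein gene typical of these cells, read 5.34, 5.62 and 4.83 in Bach2 KO and 0.76, -0.36 and -0.24 in DKO. The lowest Bach2 KO array lay more than 4 log2 units above the highest DKO array. The difference was -5.21 ± 0.34 (37-fold, adjusted p = 1.89e-05), and both Plet1 probes passed. Krt19, a keratin gene, read 2.46, 1.86 and 2.12 in Bach2 KO and -2.89, -6.00 and -6.13 in DKO, where only 1 array was well above background. Its difference was -7.15 ± 0.68 (adjusted p = 0.000241).

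Krt79, another keratin gene of these macrophages, read 2.62, 2.22 and 1.86 in Bach2 KO against -0.80, -0.35 and -1.0 in DKO, a fall of 7.72-fold (adjusted p = 0.0003). Lpl, which encodes lipoprotein lipase, read 4.74, 5.46 and 4.91 against 2.54, 3.15 and 2.31, and fell by 2.37 ± 0.27 on the log2 scale (adjusted p = 0.000833). Neither gene's groups overlapped. Cidec, a lipid droplet gene, and Fabp1, a fatty acid carrier gene, were already low in Bach2 KO, with means of -1.92 ± 0.99 and -1.73 ± 0.97 (SD, n = 3), and were at -6.20 ± 1.47 and -5.87 ± 1.27 in DKO. Ear1 and Ear2, ribonuclease genes of a multigene family whose copies the probes may not separate, fell by 2.40 and 1.51. The scavenger receptor gene Marco read 3.67, 2.75 and 1.44 in Bach2 KO and -0.93, 0.02 and 0.33 in DKO. Its call (-2.81, adjusted p = 0.0132) was lost without Bach2 KO array 1 or DKO array 1 (-3.40 to -2.29 over the 6 fits that leave out an array, adjusted p up to 0.0675). The sialic acid receptor gene Siglecf (-1.96, adjusted p = 0.0444) lost its call without any one array except Bach2 KO array 3 (-2.49 to -1.41, adjusted p up to 0.171), and with the slide as a random block (adjusted p = 0.0555).

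The other 20 identity genes did not pass. Pparg, the master regulator of these cells, averaged 4.83 ± 0.16 in Bach2 KO and 4.94 ± 0.40 in DKO (SD, n = 3), and its arrays overlapped. Chil3 averaged 7.43 ± 0.33 and 7.58 ± 0.33, and Fabp4 averaged 6.35 ± 0.38 and 6.30 ± 0.49. The differences of the 20 lay between -0.94 for Tgfbr2 and 0.81 for Spp1. Levels in the other genotypes place the 11 genes: Plet1 averaged 7.31 ± 0.17 in WT, 7.15 ± 0.49 in Bach1 KO, 5.26 ± 0.40 in Bach2 KO and 0.05 ± 0.61 in DKO, and Krt19 averaged 6.76 ± 0.20, 6.68 ± 0.51, 2.15 ± 0.30 and -5.01 ± 1.83. For Plet1, Krt19, Krt79, Ear1 and Lpl, the difference that goes with Bach1 loss was more negative without Bach2 than with it (interaction -5.05, -7.08, -2.72, -1.97 and -2.45, adjusted p = 0.00108, 0.00789, 0.0125, 0.0352 and 0.0158 in limma). The same interaction did not pass for the other 6.

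**Figure D2:**
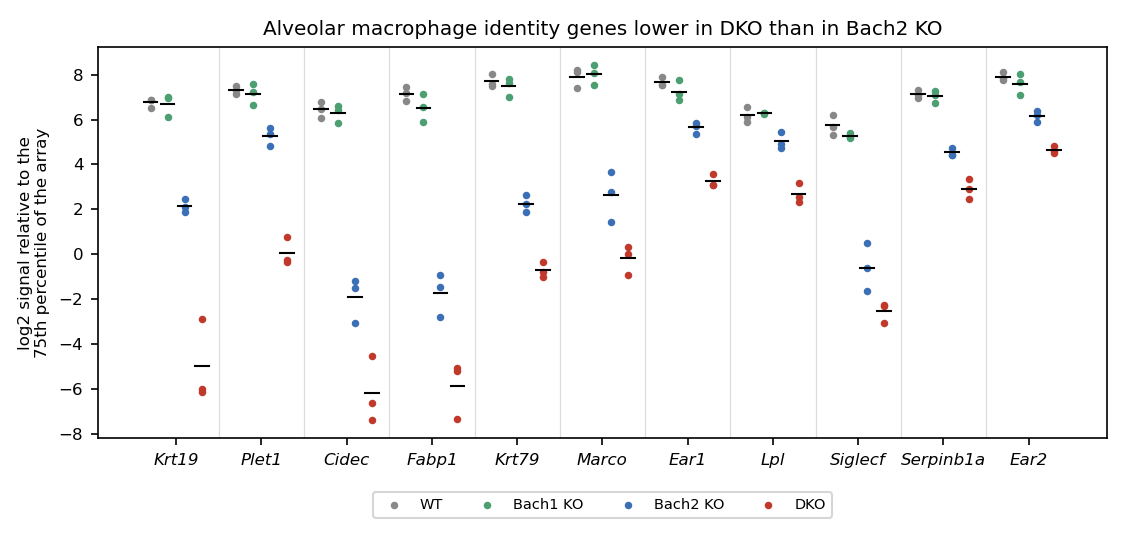
The y axis gives the log2 level after subtraction of each array's 75th percentile, with 1 point per mouse, 3 mice per genotype and black bars for means, for the 11 identity genes that were lower in DKO than in Bach2 KO. WT and Bach1 KO points sit together near the top for each gene, Bach2 KO points lie lower, and DKO points lie lowest, as for Krt19 with means of 6.76, 6.68, 2.15 and -5.01.

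The cell cycle list had the most negative median of the 22 lists. Of 46 measured members of 50, 24 fell and none rose, with a median of -1.49, and 42 of the 46 differences were below 0. Over all genes tested, 2.09% fell and 1.57% rose. Leaving out single arrays gave 19 to 22 lower members. Ccna2, the cyclin of S phase and G2, read 1.67, 2.05 and 1.88 in Bach2 KO and -2.08, -2.09 and -1.82 in DKO. The arrays of each group lay within 0.4 of each other and the groups were far apart: the difference was -3.87 ± 0.23 (14.6-fold, adjusted p = 1.84e-05). Ccnb2, a mitotic cyclin, read 2.02, 2.15 and 1.45 against -1.96, -2.14 and -1.66 (-3.79 ± 0.29, adjusted p = 5.19e-05). Cenpe, a kinetochore motor, fell by 3.08, and Nusap1, a spindle protein, fell by 2.96. Kif11, a spindle motor, read -1.99, -2.08 and -1.62 against -4.66, -5.41 and -5.50, with 1 DKO array well above background (-3.29 ± 0.35, adjusted p = 0.000567).

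The members that fell included mitotic and replication genes. Plk1, Bub1, Ube2c, Kif20a, Birc5, Top2a, Prc1, Cdc20, Ccnb1 and Mki67, all named after their values were seen, fell by 2.14 to 3.56. Among genes of DNA replication and nucleotide supply, Rrm2 fell by 2.63, Tk1 by 2.59, Gins2 by 1.90, the licensing factor gene Cdc6 by 1.67 and Rrm1 by 0.85. The genes of the MCM helicase did not pass: Mcm5 differed by -0.88, Mcm4 by -0.51, Mcm7 by -0.40, Mcm6 by 0.19, Mcm2 by 0.39 and Mcm3 by 0.63. Pcna, the replication clamp, averaged nearly the same in both groups (-0.02 ± 0.24), and Myc (0.59 ± 0.22) did not pass. The cell cycle inhibitor gene Cdkn1a also did not pass (-0.12 ± 0.20). The calls of 5 members were lost without single arrays: Ccnd2 without Bach2 KO array 1 or 3 (-2.02 to -1.29 over the 6 fits), Hmmr without Bach2 KO array 1 (-2.28 to -1.56), Cdc6 without any array but DKO array 2 (-1.81 to -1.53), and Cdkn2c (-1.54 to -1.06) and Rrm1 (-0.97 to -0.74) without any 1 array. With the replicate block the calls of Cdc6, Cdkn2c and Rrm1 were lost (adjusted p = 0.0503, 0.0523 and 0.0543), and with the slide as a random block those of Cdkn2c and Rrm1 were lost (adjusted p = 0.0561 and 0.0607).

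Bach1 loss alone left these genes near their WT level, with a list median of -0.11 and no member passing, whereas 38 of the 46 were lower in Bach2 KO than in WT, a comparison that shares the Bach2 KO arrays and in which 22.9% of all genes were lower and 13.2% higher. Ccna2 averaged 3.56 ± 0.18 in WT, 3.25 ± 0.29 in Bach1 KO, 1.87 ± 0.19 in Bach2 KO and -2.0 ± 0.16 in DKO (SD, n = 3). The interaction was negative for 10 of the 46 members, Ccna2 (-3.56, adjusted p = 0.000908) and Ccnb2 (-3.52, adjusted p = 0.00307) among them, against 0.559% of all genes.

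**Figure D3:**
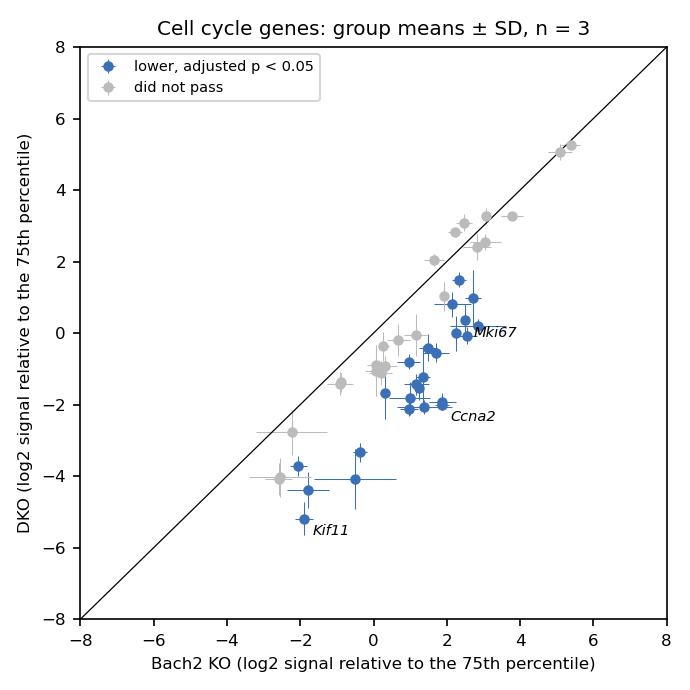
Each point is 1 of 46 cell cycle genes, with its mean log2 signal relative to the 75th percentile in Bach2 KO on the x axis and in DKO on the y axis, and SD bars over 3 mice; the line marks equal levels and blue points passed. The blue points, Ccna2, Kif11 and Mki67 among them, lie below the line, and the highest genes, such as Pcna, lie on it.

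Promoters of cell cycle genes commonly carry CCAAT boxes and the cell cycle homology region, so the 250 bases before each start were searched on both strands for CCAAT and for TTTGAA, the core of that region. The RefSeq table (GRCm38.p6) held 22 promoters of 20 of the 24 members that fell. CCAAT was found in 16 of these 22 promoters (72.7%), against 33.8% of all 32851 promoters, and TTTGAA in 8 of 22 (36.4%), against 16% of all. In promoters of the genes tested the shares were 35.2% and 11.4%. In the 367 promoters of all genes lower in DKO they were 36.5% and 16.9%. Over the 43 promoters of measured members, fallen or not, the shares were 67.4% and 23.3%. A match describes letters in this window and is not a bound site. The promoters of 3 mitotic genes that fell together are shown, chosen because they hold both motifs, which are in capitals on either strand; those of Cenpe and Plk1 held CCAAT alone and that of Nusap1 neither. They are Ccnb2 (chr9:70421555-70421804, minus strand), Cdk1 (chr10:69352913-69353162, minus strand), the mitotic kinase gene, which fell by 1.77, and Kif11 (chr19:37376132-37376381, plus strand).
Ccnb2: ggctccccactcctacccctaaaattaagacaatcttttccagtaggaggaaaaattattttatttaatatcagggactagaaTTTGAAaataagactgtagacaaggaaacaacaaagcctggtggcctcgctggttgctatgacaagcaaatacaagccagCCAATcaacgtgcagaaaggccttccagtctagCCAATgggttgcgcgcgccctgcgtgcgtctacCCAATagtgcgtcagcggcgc
Cdk1: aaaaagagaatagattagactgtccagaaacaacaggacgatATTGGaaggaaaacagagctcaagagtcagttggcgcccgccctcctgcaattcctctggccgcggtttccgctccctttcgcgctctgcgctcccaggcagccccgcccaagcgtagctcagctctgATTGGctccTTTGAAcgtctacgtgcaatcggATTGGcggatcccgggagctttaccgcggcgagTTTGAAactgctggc
Kif11: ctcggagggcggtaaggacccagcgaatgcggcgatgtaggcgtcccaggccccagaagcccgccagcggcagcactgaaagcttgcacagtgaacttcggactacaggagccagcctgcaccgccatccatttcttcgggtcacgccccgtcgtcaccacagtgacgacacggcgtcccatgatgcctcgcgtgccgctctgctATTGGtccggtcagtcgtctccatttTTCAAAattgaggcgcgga
Ccnb2 holds 3 CCAAT boxes and 1 TTTGAA, Cdk1 holds 3 CCAAT boxes and 2 TTTGAA, and Kif11 holds 1 of each on the opposite strand.

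Known and presumed Bach1 targets gave uneven values. Of 30 measured members of 33 in the heme and iron list, 2 rose and 1 fell, with a median of 0.09, and of 42 measured members of 43 in the NRF2-type antioxidant and glutathione list, 1 rose and none fell, with a median of 0.01. The shares over all genes tested were 1.57% higher and 2.09% lower. Hmox1, which encodes heme oxygenase 1, read 5.11, 5.05 and 4.83 in Bach2 KO and 6.99, 7.23 and 7.62 in DKO. The groups were far apart, and the difference of 2.28 ± 0.33 (4.85-fold, adjusted p = 0.0035) kept its call in every fit that left out an array (2.11 to 2.42). Gclm, the modifier subunit of the rate-limiting enzyme of glutathione synthesis, read 1.22, 1.36 and 1.72 against 2.73, 2.77 and 3.28, a rise of 1.49 ± 0.23 (2.81-fold, adjusted p = 0.00585). It did not pass without scaling between arrays and passed in every fit that left out an array.

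Slc40a1, which encodes the iron exporter ferroportin, read -1.68, -2.37 and -4.21 in Bach2 KO and 0.30, 0.00 and 0.56 in DKO, with no overlap. The difference was 3.04 ± 0.54 (adjusted p = 0.0113), and it was at adjusted p = 0.0502 without DKO array 1 (2.31 to 3.58 over the 6 fits). Flvcr2, a heme and choline transporter family gene, went the other way, with 2.11, 1.74 and 0.10 in Bach2 KO and -3.41, -3.85 and -3.32 in DKO (-4.84 ± 0.46, adjusted p = 0.000239). Ferritin heavy chain Fth1 (0.33 ± 0.25), the heme importer gene Slc48a1 (1.13 ± 0.44), the coproporphyrinogen oxidase gene Cpox (1.53 ± 0.55) and the transferrin receptor gene Tfrc (-0.59 ± 0.37) did not pass. Among antioxidant genes, Nqo1 read -3.10, -2.74 and -2.58 against -4.24, -4.71 and -4.56, lower in DKO without overlap but short of the threshold (-1.70 ± 0.42, adjusted p = 0.0507). Txnrd1 (-0.80 ± 0.30), Gsr (-0.55 ± 0.29) and Prdx6 (0.66 ± 0.30) did not pass either.

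Of 11 measured Bach, CNC and small Maf genes, Bach1 alone passed. Mafk, a small Maf gene, differed by -1.01 ± 0.27 (adjusted p = 0.0679), Mafg by 1.01 ± 0.36 and Nfe2l2, which encodes NRF2, by -0.22 ± 0.21. The antioxidant response element core TGACNNNGC, on either strand, was in 13.3% of 211 promoters of higher genes, 13.4% of 367 promoters of lower genes, 11.5% of the promoters of all genes tested and 10.2% of all promoters. The Gclm promoter (chr3:122245307-122245556, plus strand, GRCm38.p6) is shown because this gene rose and holds 1 such match, on the opposite strand and in capitals, 134 bases before the start.
Gclm: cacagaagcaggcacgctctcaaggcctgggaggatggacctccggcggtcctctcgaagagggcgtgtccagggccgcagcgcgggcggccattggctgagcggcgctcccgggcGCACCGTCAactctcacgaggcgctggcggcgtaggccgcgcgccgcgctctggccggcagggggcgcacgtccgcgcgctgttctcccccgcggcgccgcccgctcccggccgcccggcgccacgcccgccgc
The match is not a bound site in these data.

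Spic and C4b also rose. Spic, the transcription factor of iron-recycling red pulp macrophages, read -2.78, -1.98 and -2.67 in Bach2 KO and 2.39, 1.80 and 2.56 in DKO. All DKO arrays were more than 3 log2 units above all Bach2 KO arrays, and the difference of 4.72 ± 0.96 (26.4-fold, adjusted p = 0.0229) was the highest among named higher genes measured in both groups. Its call was lost without Bach2 KO array 1 or 3 or DKO array 1 or 3 (4.57 to 4.97, adjusted p up to 0.0903). The 3 WT arrays, which enter the shared error of the fit, read -5.71, -3.39 and -0.52. C4b, a complement gene that a near-identical copy can share signal with, read -1.92, -2.19 and -2.03 against 0.94, 0.26 and 0.98 (2.77 ± 0.57, adjusted p = 0.0251). Its call was lost without any 1 array but DKO array 2 (2.64 to 3.01, adjusted p up to 0.103).

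Fbp1, the gluconeogenic fructose bisphosphatase gene, fell on both backgrounds. It read 5.73, 6.11 and 5.05 in Bach2 KO and 1.24, 1.61 and 2.0 in DKO, and fell by 4.02 ± 0.35 (16.2-fold, adjusted p = 0.000135). In mice with Bach2 it averaged -0.52 ± 0.44 in WT and -6.30 ± 0.20 in Bach1 KO (SD, n = 3), where no Bach1 KO array was well above background (-5.78, adjusted p = 5.39e-05). The DKO level lay above the WT level and below the Bach2 KO level. In the list of pentose phosphate and glycolysis genes 3 of 25 fell and none rose, against 2.09% and 1.57% of all tested. The other 2 were Aldoc, an aldolase gene (-1.95 ± 0.25, adjusted p = 0.00165), and Rpia, of the pentose phosphate pathway (-1.49 ± 0.23, adjusted p = 0.00525).

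**Figure D4:**
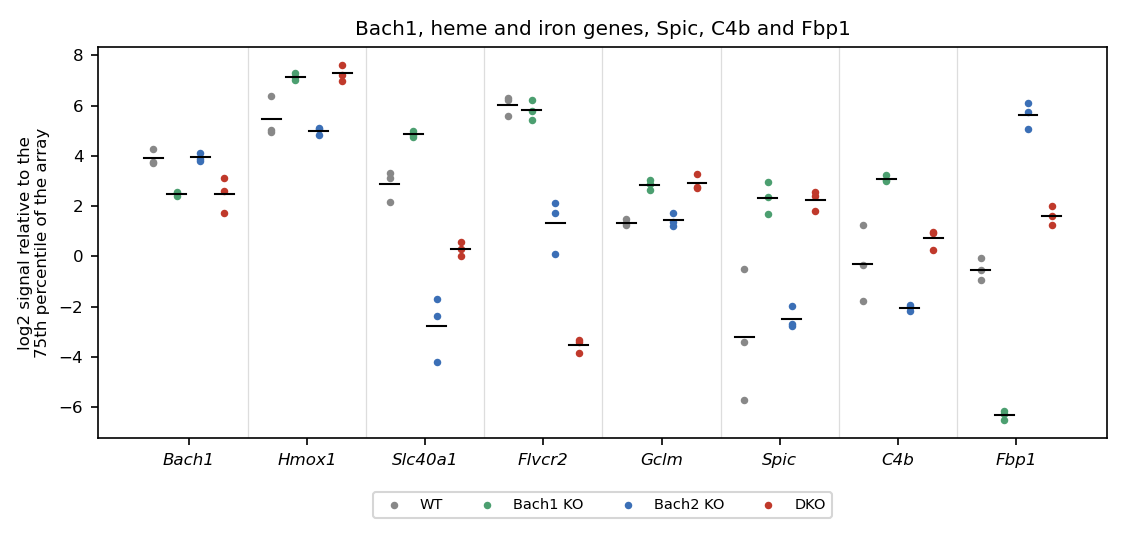
The y axis gives the log2 level after subtraction of each array's 75th percentile, with 1 point per mouse, 3 mice per genotype and bars for means. Hmox1, Gclm and Spic reach like levels in Bach1 KO and DKO (Gclm averaged 2.85 and 2.93), whereas Slc40a1 and Flvcr2 are lower in Bach2 KO and DKO than in the 2 genotypes with Bach2.

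The genes with the steepest falls were diverse. Cracd, which encodes a regulator of actin capping, read 0.94, 1.08 and 0.47 in Bach2 KO and was not well above background on any DKO array, so it was at least 83.8-fold lower (adjusted p = 2.68e-06). Such bounds set the Bach2 KO mean against the lowest signal among probes well above background on each DKO array. Slc1a3, a glutamate transporter gene, was at least 88-fold lower, the activating leukocyte receptor gene Lilra5 at least 46.7-fold, the membrane repair gene Dysf at least 34.4-fold and the laminin gene Lama4 at least 29.6-fold, with adjusted p of 0.000109, 1.89e-05, 0.000226 and 0.000241. Slc1a3, Cracd, Lilra5 and Dysf were well above background on all WT arrays, whereas Lama4 was not well above background on any WT or Bach1 KO array and did not pass in the deposited value table (adjusted p = 0.52).

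Ces2c, a carboxylesterase gene, read 1.44, 1.94 and 0.91 in Bach2 KO and -4.64, -3.71 and -5.55 in DKO, a difference of -6.06 ± 0.48 (adjusted p = 6.68e-05) in which all 3 of its probes passed. Pla2g2d, a secreted phospholipase gene, read 3.71, 3.6 and 3.42 against -1.70, -1.70 and -2.01, with replicates within 0.4 of each other in each group (-5.38 ± 0.41, adjusted p = 5.19e-05). Its WT mean was -5.08 ± 0.27, so DKO lay between WT and Bach2 KO. Awat1, a wax synthesis acyltransferase gene, read 5.42, 5.53 and 5.16 against 0.09, 1.30 and 2.11 (-4.21 ± 0.60, adjusted p = 0.0033), and had a WT mean of -0.21 ± 1.31. Ripk4, Ppic, Perp, Nek2, Cxcr1 and Mc3r fell by 4.04 to 5.47, and each kept its call without any 1 array, although Ripk4 did not pass in the deposited value table (adjusted p = 0.39).

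Axl, a receptor by which these macrophages bind dying cells, read 4.41, 3.93 and 4.0 in Bach2 KO and 1.23, 1.55 and 1.21 in DKO. The groups stood apart by more than 2 log2 units (-2.78 ± 0.19, 6.89-fold, adjusted p = 3.54e-05), and the interaction passed as well (-2.56, adjusted p = 0.00235). In the list of complement and apoptotic cell uptake, 2 of 22 fell and none rose, against 2.09% and 1.57% of all tested. The sister receptor gene Mertk did not pass (-0.70 ± 0.30), nor did the protein S gene Pros1 (-0.62 ± 0.23) or C1qb (-1.21 ± 0.39). Complement factor B (Cfb, -1.40 ± 0.33, adjusted p = 0.0408) lost its call without Bach2 KO array 1 or 3 or DKO array 1 or 2 (-1.67 to -1.19) and with the slide as a random block (adjusted p = 0.0512).

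Lipid synthesis genes fell in part. Scd1, the stearoyl-CoA desaturase gene, read 3.67, 3.6 and 3.79 in Bach2 KO and 0.29, -0.65 and -1.18 in DKO (-4.20 ± 0.63, adjusted p = 0.00436). Scd2 read 4.48, 4.44 and 4.78 against 2.86, 2.84 and 2.77 (-1.74 ± 0.28, adjusted p = 0.00623). These desaturases were the 2 of 24 measured sterol and fatty acid synthesis genes that passed, while Fdft1 (-1.32 ± 0.33) and Cyp51 (-1.09 ± 0.36) of the sterol branch did not. Of 32 measured lipid droplet, PPARgamma target and efflux genes, 2 rose and 2 fell, against 1.57% and 2.09% of all tested. Pdk4, which restrains pyruvate oxidation, read -1.77, -0.98 and -2.87 against -5.40, -7.70 and -7.43, with 1 DKO array well above background (-4.97 ± 0.67, adjusted p = 0.0022). Mgll fell by 1.05 and lost its call without Bach2 KO array 1 or DKO array 1 or 2 (-1.15 to -0.94). The HDL receptor gene Scarb1 rose by 1.69 and lost its call without Bach2 KO array 3 or DKO array 1 (1.37 to 1.93), and the lipase gene Pnpla2 (1.28, adjusted p = 0.0492) lost it without any 1 array (0.94 to 1.53), with the replicate block (adjusted p = 0.0552) and with the slide as a random block (adjusted p = 0.0591).

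Of 21 measured chemokine genes 1 fell and 1 rose, with a median of 0.04, while 2.09% of all tested fell and 1.57% rose. Cxcl3, a neutrophil chemokine gene, read 3.59, 3.40 and 2.93 in Bach2 KO and 0.44, 0.48 and -0.07 in DKO (-3.03 ± 0.33, adjusted p = 0.0006), with a WT mean of -1.08 ± 0.58. Ccl8 rose by 1.94 ± 0.44 (adjusted p = 0.0341), a call lost without Bach2 KO array 1 or 3 or DKO array 1 or 3 (1.59 to 2.31) and with the replicate block (adjusted p = 0.0506). Of 28 measured growth factor and matrix genes, 5 fell and 1 rose. The gelatinase gene Mmp2 was at least 7.36-fold lower (adjusted p = 0.00218). The collagen gene Col4a1 fell by 3.35, a call lost without DKO array 1 (-3.85 to -3.03, adjusted p up to 0.0507), Pdgfc by 2.39, lost without Bach2 KO array 3 or DKO array 1 (-2.68 to -1.97), and Thbs1 by 2.23, lost without any 1 array (-2.44 to -1.87) with the replicate block (adjusted p = 0.0518) and with the slide as a random block (adjusted p = 0.0512). The collagenase gene Mmp8, also a neutrophil gene, rose by 1.93 and lost its call without DKO array 1 or 3 (1.47 to 2.23).

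The sialoadhesin gene Siglec1 read 0.65, 0.08 and 0.56 against -2.51, -1.66 and -2.38 (-2.61 ± 0.33, adjusted p = 0.00143), and the Fc receptor gene Fcgr4 read 3.83, 3.83 and 3.51 against 1.29, 2.23 and 2.22 (-1.81 ± 0.26, adjusted p = 0.00301). These were the 2 of 21 measured integrin, lectin and Fc receptor genes that passed, against 3.66% of all tested in either direction. Nos2 was the 1 of 27 inflammatory genes that passed (-1.81 ± 0.36, adjusted p = 0.0203), lost without Bach2 KO array 1 or 2 or DKO array 1 (-2.09 to -1.51), and Il1b did not pass (-1.40 ± 0.43). No gene passed among 30 respiratory chain, 29 lysosome, 27 interferon-stimulated, 24 heat shock and proteasome, or 18 alternative activation genes, with median differences of 0.26, 0.24, 0.17, 0.21 and -0.10. Of 25 ATF4 and unfolded protein response genes, whose median was 0.57, only Shmt2 rose (1.01 ± 0.22, adjusted p = 0.0316), and its call was lost without any 1 array but Bach2 KO array 3 (0.91 to 1.12). Of 19 surface costimulation and TNF family genes, Tnfrsf1a (1.17) lost its call without Bach2 KO array 2 or 3 or DKO array 3 (1.0 to 1.28), and Cd244a (1.23) without any 1 array (1.11 to 1.34) and with the slide as a random block (adjusted p = 0.057).

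Of 25 higher genes followed through every alternative, Hmox1, Gclm, Cdk5r2, Fam76a and Npm3 kept their call without any 1 array, against 56 of 71 lower genes. Fam76a read -0.30, -0.08 and -1.69 in Bach2 KO and 2.48, 2.0 and 1.78 in DKO (2.78 ± 0.39, adjusted p = 0.0029), and its interaction was 3.08 (adjusted p = 0.0311). Npm3, which encodes a nucleoplasmin family histone chaperone, read 0.32, 0.28 and -1.68 against 2.13, 2.81 and 2.11 (2.71 ± 0.49, adjusted p = 0.0129). Cdk5r2 read -2.67, -1.93 and -3.61 against 1.72, -0.05 and 3.89, so its DKO arrays spanned nearly 4 log2 units (4.59 ± 0.79, adjusted p = 0.00921). DKO array 3 was the highest DKO array for Cdk5r2, Olfr1505, Krt75 and Hoxa9, and it also had 733 outlier spots against 136 to 376 on the other arrays. Spots flagged as outliers were left out before probe values were formed, so they do not enter these readings. The part of this array's quality in the calls was not tested. Olfr1505 (2.71 to 4.69 over the 6 fits) and Krt75 (2.41 to 4.12) lost their call without Bach2 KO array 1 or 3 or DKO array 1, Olfr1505 also without DKO array 3 and Krt75 also without Bach2 KO array 2. Hoxa9 (2.36 to 3.74) lost it without Bach2 KO array 1 or 3.

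Bach1 loss in mice that keep Bach2 gave far fewer calls in the same genes: 4 were higher (0.0164%) and 10 lower (0.0411%) in Bach1 KO than in WT. The 2 comparisons share no arrays. Bach1 KO and WT lay on 1 slide, whereas DKO lay on its own slide and scan day. Slide and background therefore cannot be told apart in this contrast or in the interaction. Across genes, which are not independent replicates, their differences had a Pearson correlation of -0.00754. Of the 382 genes higher in DKO, 46.3% were also above 0 in Bach1 KO minus WT, against 43.1% of all genes tested. Of the 510 lower genes 55.1% were also below 0, against 56.9% of all genes tested. Some of these genes were not well above background on all arrays of WT or of Bach1 KO. Among those that were, 60% of 418 lower genes were below 0, against 58.7% of 21877 tested. For higher genes, 42.1% of 330 were above 0, against 41.3%. Each share thus lay near that of all genes. For 5 genes that rose in DKO the values on both backgrounds were these: Gclm differed by 1.51 with Bach2 and 1.49 without it (interaction -0.02 ± 0.33), Hmox1 by 1.68 and 2.28, Slc40a1 by 1.98 and 3.04, Spic by 5.54 and 4.72, and C4b by 3.38 and 2.77. None of the 5 interactions passed, and none of the 5 passed in Bach1 KO against WT (adjusted p = 0.0666, 0.166, 0.405, 0.0984 and 0.0984). Tested directly, the interaction was positive for 27 genes (0.111%) and negative for 136 (0.559%). At least 1 of these counts moved by over 1.5 times without any 1 of the 12 arrays except WT array 3, from 7 and 67 without Bach2 KO array 1 to 77 and 215 without WT array 2. Of these 163 genes, 130 were well above background on all arrays of WT or of Bach1 KO, and the others were not, so that a fall with Bach1 loss could be measured there only in part or not at all.

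For 4 of 15 measured MHC class II presentation genes the interaction was positive, and for none was it negative. Over all genes tested the shares were 0.111% and 0.559%. These 4 fell in Bach1 KO against WT, a difference that is part of the interaction, so the 2 results are not separate. None of the 15 passed in DKO against Bach2 KO, and their median difference was 0.00. H2-Ab1, which encodes a class II beta chain, read 6.55, 6.78 and 6.65 in Bach2 KO and 6.65, 6.69 and 7.14 in DKO. The groups overlapped (0.17 ± 0.22), and the difference was -0.17 with quantile normalization and -0.09 without scaling. With Bach2 present, H2-Ab1 averaged 6.15 ± 0.16 in WT and 2.88 ± 0.37 in Bach1 KO (SD, n = 3), a fall of 3.27 (adjusted p = 0.000104). H2-Eb1 averaged 5.15 ± 0.14 and 1.11 ± 0.64, H2-Aa 3.04 ± 0.79 and -1.16 ± 1.04, and the invariant chain gene Cd74 4.16 ± 0.73 and 0.36 ± 0.88, and all of them passed in Bach1 KO against WT. The interaction was 3.43 for H2-Ab1, 4.05 for H2-Eb1, 3.78 for H2-Aa and 4.08 for Cd74 (adjusted p = 0.000908, 0.00235, 0.0428 and 0.024). Ciita, the class II transactivator gene, differed by 1.5 ± 0.61 in DKO and by -1.76 in Bach1 KO, and neither passed. H2-Eb2 (-2.35 ± 0.59, adjusted p = 0.0507) and H2-DMa (-1.19 ± 0.31, adjusted p = 0.0556) were lower in DKO without overlap but did not pass, H2-DMa passing without DKO array 3.

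**Figure D5:**
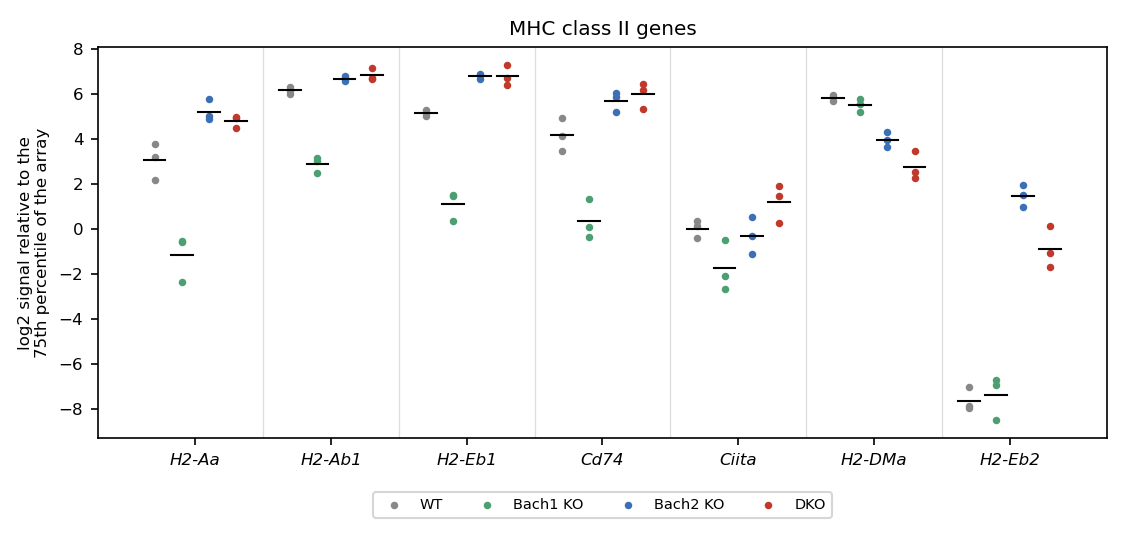
The y axis gives the log2 level after subtraction of each array's 75th percentile, with 1 point per mouse, 3 mice per genotype and bars for means, for 7 MHC class II presentation genes. H2-Aa, H2-Ab1, H2-Eb1 and Cd74 are lowest in Bach1 KO and reach like levels in Bach2 KO and DKO, whereas the DKO points of H2-DMa and H2-Eb2 lie below those of Bach2 KO.

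Markers of cell types were read beside these results. All 9 measured macrophage lineage markers (Csf1r, Adgre1 and Lyz2 among them) and all 10 alveolar macrophage markers were well above background on every array of a group. Of the alveolar macrophage markers 5 fell, against none of the lineage markers and 2.09% of all tested. These 5 (Siglecf, Marco, Ear1, Ear2 and Krt79) are among the 11 identity genes above, so they are not a separate result. As given there, Siglecf and Marco lost their call without single arrays. Summed over markers, with 1 equal to the signal at the 75th percentile, monocyte markers gave 102 to 112 in Bach2 KO and 142 to 167 in DKO, and neutrophil markers 52.1 to 69 and 78.5 to 117, with Ngp not above background on any array. Nr4a1 (2.05) was the 1 monocyte marker and Mmp8 the 1 neutrophil marker that rose. Their DKO means of 1.34 and 0.33 lay below the WT means of 1.92 and 3.25. Most of the monocyte sum came from Fn1 (mean level 6.40 in Bach2 KO, 6.63 in DKO and 6.06 in WT). Endothelial and stromal markers gave 33.5 to 46.6 and 48.2 to 67.3, with Col1a1 not above background. Most of this sum came from Vwf (mean level 5.21 in Bach2 KO, 5.79 in DKO and 4.69 in WT), and most of the neutrophil sum from Csf3r (5.74, 6.09 and 6.57). T cell markers gave 37.5 to 45.5 and 43.6 to 58.1, with Themis not above background. Eosinophil markers, some of which resident macrophages also express, gave 2.34 to 5.13 in Bach2 KO and 0.781 to 1.02 in DKO, with Epx not above background, and Alox5 and Ear6 fell by 3.55 and 2.88. The part of other cells in the differences above was not tested.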

How the data were processed

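Total RNA of sorted alveolar macrophages was amplified, Cy3-labelled and hybridised to 1-colour Agilent arrays, per the labels' protocols. The deposited files hold scanner intensity values that were background-subtracted and detrended within each array by Feature Extraction 10.7.3.1 per the file headers, while the submitters' processing notes name version 9.1. The deposited value table holds log2 values of the same arrays and served as an alternative; the labels do not state how the authors scaled and centred it.

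Here the log2 intensity minus each array's 75th percentile of non-control spots was used. Of 55681 probes, 28209 were kept, being well above background on all 3 arrays of DKO or of Bach2 KO, and 1 probe stood for each gene, giving 24348 genes and transcripts. Genes were named through a RefSeq table (GRCm38.p6), which named 26421 probes. A mean per genotype was fitted over all 12 arrays with limma 3.58.1 in R 4.3.3 (lmFit, eBayes with trend, 8 residual degrees of freedom), with Benjamini-Hochberg adjusted p under 0.05. The interaction is DKO minus Bach2 KO, minus the difference Bach1 KO minus WT. Errors after differences are standard errors of the fit. The number of arrays limits the precision: on simulated data for DKO against Bach2 KO with 23752 genes, the fit called 10.3% of genes changed by 1 log2 unit, 51.5% by 2 and 78.8% by 4, with 2 unchanged genes called. The simulated noise was independent between genes and held no slide or scan effect. The simulation therefore does not measure false calls that such effects could give in these data.

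The named genes were Bach1 and Bach2, the 15 per direction with the largest difference among genes that passed, did not overlap and were above background on at least 2 arrays of each group, up to 5 per direction by their bound, up to 5 per list by adjusted p (12 for the heme, antioxidant and Bach lists), and 6 per direction by interaction. Other genes, including the remaining list members, were chosen after their values were seen. The members and lists were chosen with earlier results of these data known. Same-numbered DKO and Bach2 KO arrays deviated together from their group means, though weakly (correlations 0.129, 0.138 and 0.137, against -0.131 to 0.0371 for different numbers). The numbers were therefore taken as pairs from the data, not from the labels, and only in the alternative fit with the replicate block. That block also uses the WT and Bach1 KO numbers, which were not checked in this way. The main fit was unpaired. Motifs were searched in the 250 bases before each start. Results for some members of the lists are not reported here.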

Additional observations from a re-analysis of the deposited data

Results flagged for a closer look

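For the genes below, the difference that goes with Bach1 loss was not the same without Bach2 as with it, by limma's interaction term at an adjusted p under 0.05. Values are log2, as DKO minus Bach2 KO less Bach1 KO minus WT. The first of these differences crosses slide and scan day and the second does not. The DKO slide and the genotype therefore cannot be told apart in these values. Where the DKO or Bach1 KO arrays were not well above background, the fitted value is no bound. Mmp2 and Lama4 were not well above background on any WT or Bach1 KO array, so no fall with Bach1 loss was measurable where Bach2 is present, and their values do not show that the backgrounds differ.

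Positive values were found for Hpse (4.71), Cd74 (4.08), H2-Eb1 (4.05), Oas1g (4.05), H2-Aa (3.78), H2-Ab1 (3.43) and Fam76a (3.08). Oas1g has close paralogs, so its signal is uncertain.

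Among alveolar macrophage and lipid genes, negative values were found for Krt19 (-7.08), Pdk4 (-5.51), Plet1 (-5.05), Krt79 (-2.72), Lpl (-2.45) and Ear1 (-1.97). Among mitotic genes they were found for Ccna2 (-3.56), Ccnb2 (-3.52), Kif11 (-3.45), Nusap1 (-3.16) and Cenpe (-2.93). Among surface receptors and secreted factors, Siglec1 had -2.58, Axl -2.56, Fcgr4 -1.95, Cxcl3 -4.31 and Mmp2 -4.96. The transporter gene Flvcr2 had -4.62, and the metabolic genes Aldoc and Rpia had -1.92 and -1.87.

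The largest negative values belonged to Mustn1 (-8.87), Cracd (-8.25), Dysf (-7.33), Lilra5 (-7.32) and Slc36a2 (-7.28), followed among the rest by Igf2bp3 (-6.80), Lama4 (-6.38), Slc1a3 (-6.06), Ces2c (-5.70), Awat1 (-5.27) and Pla2g2d (-5.20). Pla2g2d averaged only -5.08 in WT, so little fall with Bach1 loss was measurable where Bach2 is present. For Mustn1, Slc36a2 and Igf2bp3 the value includes a rise in Bach1 KO over WT (3.33, 4.16 and 2.68) that did not pass. Slc36a2 also did not pass in DKO against Bach2 KO (adjusted p = 0.0751 in limma).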

How the results depend on the processing

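Against 382 higher and 510 lower genes, the counts were 642 and 816 with quantile normalization, 762 and 863 in the deposited value table, 1098 and 953 with both groups fitted alone, 2630 and 2366 with array quality weights, 241 and 312 with probes above background on all 6 arrays, 46 and 218 at adjusted p under 0.01, and 322 and 463 with the replicate block. The higher count was 718 with normexp (52.3% of calls higher, against 42.8%), 149 without scaling (23.9%; median of all genes -0.21) and 173 without a filter on dim probes (32.5%). Leaving out 1 DKO or Bach2 KO array gave 64 to 283 higher and 231 to 361 lower genes. These fits hold fewer arrays, and the cause was not tested further.

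The interaction was positive for 27 genes and negative for 136. The positive count was 50 with quantile normalization, 4 without scaling, 102 with normexp, 42 in the value table, 12 without the dim filter and 12 above background on all 6 arrays, 706 with weights, 2 at adjusted p under 0.01 and 7 to 77 leaving out 1 array. The negative count was 84 in the value table, 88 without the dim filter, 67 above background on all 6 arrays, 735 with weights, 41 at adjusted p under 0.01 and 67 to 215 leaving out 1 array.

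The Bach1 probe passed over all probes with quantile normalization (-1.66), without scaling (-1.70), with normexp (-1.45), in the value table (-1.46), with the replicate block (-1.45), with weights (-1.33) and without DKO array 2 (-1.78); leaving out 1 array gave -1.78 to -1.07. The replicate block ended the calls of Chat, Zbtb38, Pnpla2, Ccl8, Cdc6, Cdkn2c, Rrm1 and Thbs1 and added those of Tnip3 (adjusted p = 0.043) and Itgb7 (adjusted p = 0.0325); besides the Bach1 probe it changed no other call of the named genes.

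Signs turned for genes that had not passed: H2-Ab1 (-0.17) and Fth1 (-0.03) with quantile normalization, H2-Ab1 (-0.09), Nfe2 (-0.05), Bach2 (-0.02) and Maf (-0.10) without scaling, Prdx6 (-0.24) in the value table, Maff (0.02) and Bach2 (-0.03) without Bach2 KO array 1, Nfe2 (-0.11) and Bach2 (-0.03) without Bach2 KO array 3, and Bach2 (-0.44) and Keap1 (0.09) without DKO array 2. The cause was not tested. Normexp on mean signals was not run, and normexp on median signals was chosen in its place after seeing the data. Over all fits that left out 1 array, the difference ran up to 0.49 for Nfe2 and 0.76 for Bach2 (both without Bach2 KO array 2), and down to -0.46 for Keap1 (without DKO array 3) and -0.23 for Maff (without Bach2 KO array 3).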
